A study of Mus musculus with 2 samples.

Results

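The 5 listed genes of the Ikaros family, *Ikzf1* (Ikaros), *Ikzf2* (Helios), *Ikzf3* (Aiolos), *Ikzf4* (Eos) and *Ikzf5* (Pegasus), were read in single-cell RNA sequencing of T cells from a mouse with and a mouse without TET2 and TET3 in Treg cells. They were taken by name from the 32285 genes of the deposited matrices, whatever their values, and all 5 were detected. TCRβ+ cells, which carry the αβ T cell receptor, came from the spleen, pooled with cervical and inguinal nodes, at 14 weeks of age. The WT mouse was *Foxp3Cre* WT. The other mouse was *Foxp3-Cre Tet2/3* fl/fl, called DKO-severe by its number of spleen and lymph node cells. Both mice carried Cre under *Foxp3*, the Treg lineage gene, so only a cell with a present or past *Foxp3* signal was meant to lose *Tet2* and *Tet3*. There was 1 mouse per genotype, so no difference between the mice has a replicate check and no test was made.

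Ikaros family proteins are zinc finger transcription factors that bind DNA through one set of fingers and pair with each other through another. They recruit corepressor complexes that silence genes, and some of them also take part in activation. Ikaros is used throughout the lymphoid lineage and Aiolos in mature B cells and activated T cells. Helios and Eos are best known from Treg cells, where Helios supports a stable phenotype and Eos acts with FOXP3 as a repressor. Helios is also made by activated and T follicular helper (Tfh) cells, and Pegasus is the member least like the others.

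On GRCm38, the assembly of mm10, with GENCODE M21 gene models, all 5 are protein-coding genes. *Ikzf1* (ENSMUSG00000018654) lies at chr11:11685003-11772926 on the plus strand, and *Ikzf3* (ENSMUSG00000018168) at chr11:98464902-98546031 on the minus strand. *Ikzf2* (ENSMUSG00000025997) spans chr1:69531214-69687245, *Ikzf4* (ENSMUSG00000002578) chr10:128630843-128645991 and *Ikzf5* (ENSMUSG00000040167) chr7:131388652-131410521, all on the minus strand. The locus of *Ikzf2* covers 156032 bases and that of *Ikzf4* 15149 bases. Whether reads within introns were counted is not given in the sources used here, and counts come from the 3′ ends of transcripts, so levels were compared between cells for 1 gene and never between genes. Over all retained cells, *Ikzf1* had 77290 UMIs (distinct captured molecules), *Ikzf2* 60371, *Ikzf3* 21235, *Ikzf5* 1675 and *Ikzf4* 1486. The last pair is therefore read with wide intervals in small gates.

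The WT matrix held 7189 barcodes with 45294779 UMIs and the DKO-severe matrix 7161 barcodes with 69692053 UMIs, and they shared 0 barcodes. After filters on cells and doublets, 6583 WT cells with a median of 5616 UMIs remained, beside 6359 DKO-severe cells with a median of 8060. The leading hashtag went against the genotype of the matrix in 3 barcodes, which were left out. In the Foxp3-negative Cd4 gate *Tet2* was at 52.6 CPM (UMIs per 1000000 UMIs) in WT against 71.5 CPM in DKO-severe cells, and *Tet3* at 116 and 101 CPM. The sources used here do not give which exons Cre removes, so these 3′ counts do not check the deletion. Level below means CPM over the summed cells of a gate. Its 95% interval (exact Poisson), that of a log2 ratio (exact, conditional on the total of the gene) and that of a share of cells (Clopper-Pearson) cover counting error only, not the spread between mice.

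Cells were placed in 5 gates by their own UMIs. Foxp3-positive cells were *Cd3*-expressing, *Cd4*-positive, *Cd8*-negative cells with a *Foxp3* UMI (64 WT and 334 DKO-severe cells), and Foxp3-negative cells were the same without one (1675 and 2406). The Cd8 gate held 3051 and 1733 cells. The innate-like gate was T cells with a UMI of *Zbtb16*, the factor of innate-like T cells, and none of *Cd8a*, *Cd8b1*, *Foxp3*, *Cd79a* or *Ms4a1*. It held 87 and 191 cells, of which 19 and 84 were also in the Foxp3-negative gate. The B gate, cells with B cell genes and no *Cd3*, held 15 and 216 cells left from the sort. *Foxp3* is a low transcript, so a cell without a *Foxp3* UMI may still express it, and the Foxp3-negative gate is not a gate on protein.

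Helios was highest in Foxp3-positive cells. *Ikzf2* in WT cells was at 2235 CPM in the Foxp3-positive gate, 413 CPM in the innate-like gate, 363 CPM in the Foxp3-negative gate, 102 CPM in the Cd8 gate and 8.33 CPM (1 UMI) in the B gate. The innate-like and Foxp3-negative neighbours overlapped in their intervals, and each other step was larger than its counting intervals. In DKO-severe cells the order was 2655 CPM in Foxp3-positive, 905 CPM in Foxp3-negative, 698 CPM in innate-like, 109 CPM in Cd8 and 19.4 CPM in B cells, with no overlap between neighbours. The Foxp3-negative gate thus stood above the innate-like gate in the DKO-severe mouse and not in WT.

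**Figure D1:**
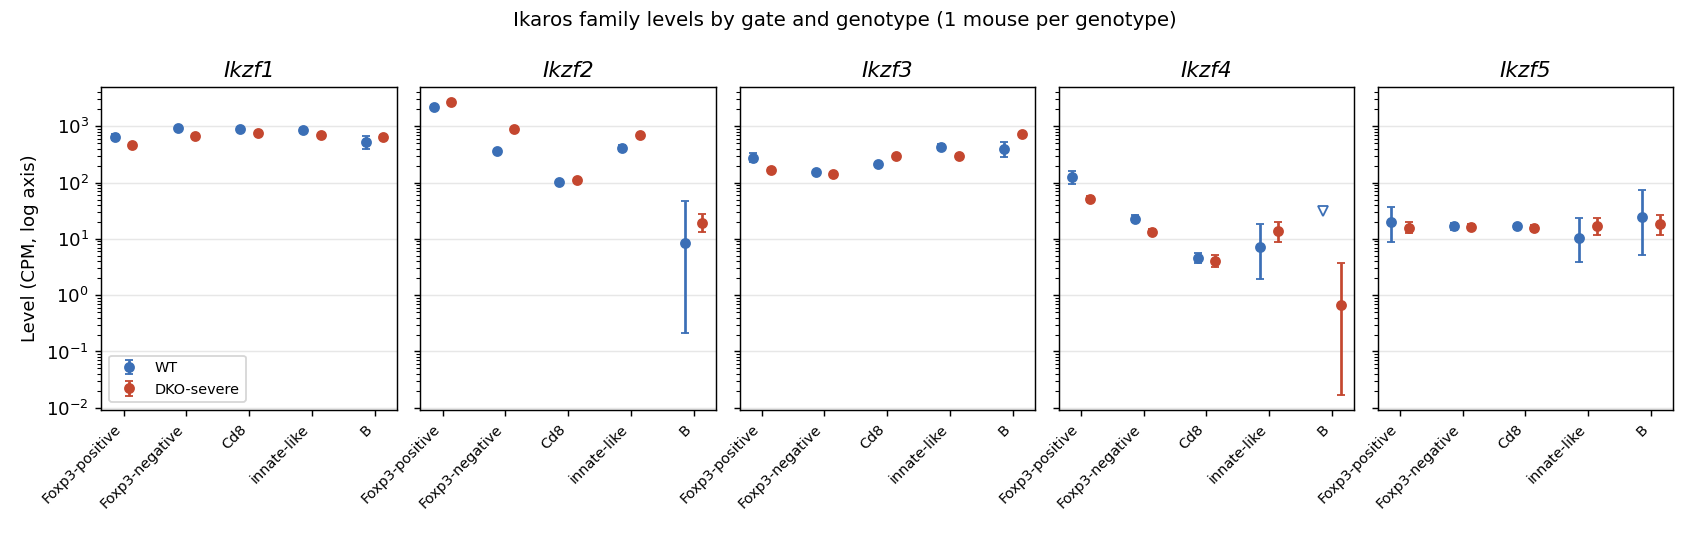
Level of each family member (CPM, log axis) in 5 gates, WT in blue and DKO-severe in red, with exact 95% Poisson intervals for counting error. The open triangle marks the upper interval bound where 0 UMIs were counted. *Ikzf2* and *Ikzf4* were highest in the Foxp3-positive gate, while *Ikzf1* stayed between 463 and 933 CPM in all gates.

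Among the gates, Helios differed most between the mice in cells without a *Foxp3* UMI. In the Foxp3-negative gate *Ikzf2* went from 363 CPM (3547 UMIs) in WT to 905 CPM (20950 UMIs) in DKO-severe cells, a log2 ratio of 1.32 (interval 1.27 to 1.37) or 2.49-fold. It was the only 1 of the 5 members past 2-fold in this gate, where 11.2% of the 6297 genes with a mean of 20 or more CPM were past 2-fold and the median of all genes was 0.10. *Ikzf4* and *Ikzf5* were under that minimum in this gate and are given by their own values.

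The mice differed in the share of Foxp3-negative cells with *Ikzf2*, while positive cells held similar numbers of UMIs. After each cell was thinned to 3800 UMIs, 256 of 1221 WT cells (21.0%, 18.7 to 23.4) had an *Ikzf2* UMI, against 1072 of 1862 DKO-severe cells (57.6%, 55.3 to 59.8). Among cells with a UMI, the mean was 5.65 UMIs in WT and 5.60 in DKO-severe, with a median of 3 in each. The share with 5 or more UMIs was 8.03% of WT and 20.5% of DKO-severe cells. Without thinning the shares with a UMI were 24.8% and 66.3%. B cells, which use the gene little, were thinned to the same depth for comparison. An *Ikzf2* UMI was seen in 11 of 192 DKO-severe B cells (5.73%, 2.89 to 10.0), and in 0 of 11 WT B cells, where 3 cells would be 27.3% and the exact interval reaches 28.5% of cells with a UMI.

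Cell states in this gate differed strongly between the mice, and *Ikzf2* was therefore also read within states. Tfh-marked cells had a UMI of 2 or more of *Pdcd1*, *Cxcr5*, *Icos*, *Il21* and *Tox2*, genes of T follicular helper cells. Naive-marked cells had fewer, with a UMI of 2 or more genes of a list for resting cells that includes *Ccr7*, *Lef1* and *Igfbp4*. In WT, 121 cells (7.22%) were Tfh-marked and 1286 (76.8%) naive-marked. In DKO-severe, 1526 (63.4%) were Tfh-marked and 410 (17.0%) naive-marked. These states were set at full depth, and Tfh-marked DKO-severe cells were deeper (median 8869 UMIs) than Tfh-marked WT cells (6191), so more of them could pass.

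Within states the direction depended on the state. In naive-marked cells *Ikzf2* was at 161 CPM in WT against 378 CPM in DKO-severe, for a log2 ratio of 1.23 (1.12 to 1.35). In Tfh-marked cells it was lower in DKO-severe, at 1046 CPM against 1401 CPM in WT (log2 -0.42, -0.50 to -0.34). In cells of neither kind it was at 736 CPM in each mouse (log2 0.00, -0.11 to 0.11). Tfh-marked cells exceeded naive-marked cells by 3.12 on the log2 scale (8.71-fold) in WT and by 1.47 (2.77-fold) in DKO-severe. With the DKO-severe levels of the 3 states weighted by the WT shares of UMIs, a calculation added after the values were seen, *Ikzf2* came to 493 CPM and its log2 ratio to 0.44, no longer past 2-fold.

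**Figure D2:**
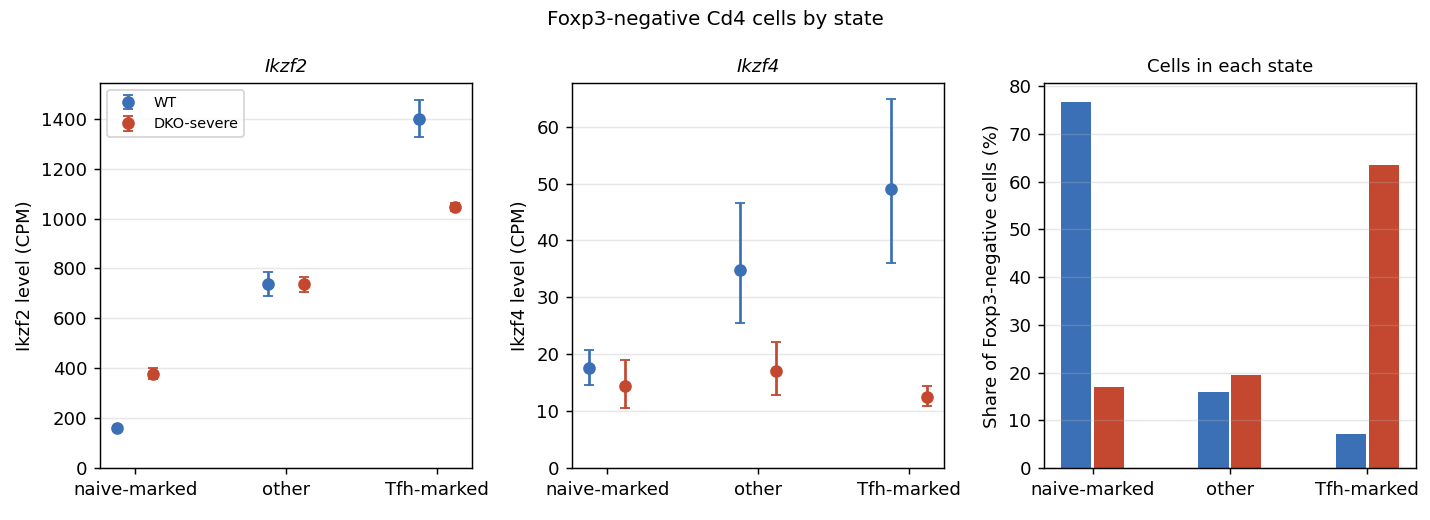
Foxp3-negative Cd4 cells split by state, WT in blue and DKO-severe in red: level of *Ikzf2* (left) and *Ikzf4* (middle) in CPM with exact 95% Poisson intervals, and share of cells in each state in percent (right). *Ikzf2* was higher in DKO-severe only in naive-marked cells, *Ikzf4* was lower in Tfh-marked and other cells, and most DKO-severe cells were Tfh-marked.

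Treg cells whose *Foxp3* was missed could carry *Ikzf2* into this gate. Leaving out every cell with a UMI of *Il2ra* (the high-affinity IL-2 receptor chain) or *Lrrc32* (the TGF-β docking protein of activated Treg cells), also chosen after the values were seen, left 1522 WT and 1905 DKO-severe cells. *Ikzf2* was then at 226 and 739 CPM, a log2 ratio of 1.71 (1.64 to 1.78). Both genes were lower in DKO-severe than in WT Foxp3-positive cells (163 against 490 CPM for *Il2ra* and 4.74 against 82.8 CPM for *Lrrc32*), so this filter could take more missed Treg cells from WT, and the part of missed DKO-severe Treg cells was not tested. Of the 10 Treg genes listed, 5 had enough counts in the Foxp3-negative gate. Past 2-fold upward were 4 of these, beside 7.92% of all genes. The list median was 1.38, beside 0.10 for all genes. The 4, named after their values were seen, were *Ctla4* (88.7 against 326 CPM), *Tnfrsf18* (75.5 against 221 CPM), *Capg* (71.4 against 186 CPM) and *Nrp1* (78.9 against 201 CPM), while *Il2ra* was at 34.5 and 54.5 CPM. These genes are used by activated and Tfh cells as well as by Treg cells.

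DKO-severe Foxp3-negative cells also differed among themselves. The 806 cells (33.5%) with a UMI of *Cntn5*, an adhesion molecule gene, had *Ikzf2* at 709 CPM against 1011 CPM in the 1600 without one (log2 -0.51, -0.56 to -0.47). In the same split *Ikzf3* was at 98.4 against 162 CPM (log2 -0.72) and *Ikzf4* at 6.51 against 17.2 CPM (log2 -1.40, -1.85 to -0.97). *Ikzf1* went the other way by a small amount, with a log2 difference of 0.12. Cells with a *Cntn5* UMI thus held less of 3 members. In WT, 86 cells had a *Cntn5* UMI.

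In the Foxp3-positive gate Helios differed little. *Ikzf2* was at 2235 CPM (1026 UMIs) in WT against 2655 CPM (12871 UMIs) in DKO-severe cells, a log2 ratio of 0.25 (0.16 to 0.34). At equal depth a UMI was found in 25 of 29 cells in WT (86.2%, 68.3 to 96.1) and in 79 of 91 in DKO-severe (86.8%, 78.1 to 93.0). The sign depended on the gate, since the log2 ratio was -0.16 among cells with 2 or more *Foxp3* UMIs. In DKO-severe cells the level differed with a second feature. The 259 cells with a UMI of *Dscam*, *Penk* or *Hapln1*, genes for an adhesion molecule, an opioid precursor and a matrix link protein, had *Ikzf2* at 2893 CPM and the 75 without at 1490 CPM, a log2 difference of 0.96 (0.87 to 1.04). Without such a UMI, *Ikzf2* was lower in DKO-severe than in WT cells, 1490 against 2110 CPM (log2 -0.50, -0.63 to -0.37). Only 8 WT cells had such a UMI. DKO-severe cells with one were deeper (median 12134 UMIs) than those without (9455), and WT cells without one had a median of 5255. Depth could therefore affect on which side of this split a cell fell.

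Helios in the Cd8 gate was close in level between the mice, at 102 and 109 CPM (log2 0.10, 0.00 to 0.19), and its sign changed with the processing. At equal depth 14.2% of WT and 12.1% of DKO-severe cells had a UMI. The states again went in different directions. Naive-marked Cd8 cells had *Ikzf2* at 89.0 CPM in WT against 61.1 CPM in DKO-severe (log2 -0.54, -0.67 to -0.41). Effector-marked cells, with a UMI of 2 or more of *Gzma*, *Gzmb*, *Gzmk*, *Klrg1* and *Ccl5*, had it at 69.4 and 138 CPM (log2 0.99, 0.61 to 1.39), from 62 UMIs in 110 WT cells and 610 UMIs in 566 DKO-severe cells. Cd8 cells of neither kind had the highest levels, 297 and 516 CPM (log2 0.79). Naive-marked Cd8 cells had a median of 6306 UMIs in WT and 10364 in DKO-severe, and effector-marked ones 7134 and 6174.5. Depth could therefore affect in which of these states a cell fell.

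In the innate-like gate *Ikzf2* was at 413 CPM (234 UMIs) in WT against 698 CPM (1388 UMIs) in DKO-severe cells, a log2 ratio of 0.76 (0.56 to 0.96). The top cell gave 9.83% of these UMIs in WT and 10.1% in DKO-severe. Without the 19 WT and 84 DKO-severe cells that were also in the Foxp3-negative gate, an alternative added after the values were seen, the levels were 429 and 368 CPM and the log2 ratio was -0.22 (-0.49 to 0.05). The higher level in DKO-severe thus rested on *Cd4*-positive cells. Detection at equal depth was 55.8% in WT and 53.1% in DKO-severe cells.

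Over all UMIs, Eos was at a lower level in each Cd4 gate of the DKO-severe mouse. In the Foxp3-positive gate *Ikzf4* was at 126 CPM (58 UMIs in 64 cells) in WT against 51.8 CPM (251 UMIs in 334 cells) in DKO-severe, for a log2 ratio of -1.29 (-1.70 to -0.85). It was the 1 of 5 members past 2-fold in this gate, beside 13.7% of the 6498 genes tested. Gates and levels at equal depth gave -0.83, from 13 WT and 23 DKO-severe UMIs. Cells with 2 or more *Foxp3* UMIs gave -0.62, from 15 UMIs in 17 WT cells and 150 UMIs in 146 DKO-severe cells. The 2-fold call did not hold in either. No interval was formed for these values, so the direction is not secured there. *Foxp3* itself was at 200.4 CPM in WT against 118 CPM in DKO-severe cells of this gate, which deeper DKO-severe cells (median 11589 against 5382.5 UMIs) could enter at a lower level. At equal depth an *Ikzf4* UMI was found in 9 of 29 cells in WT (31.0%, 15.3 to 50.8) and in 19 of 91 in DKO-severe (20.9%, 13.1 to 30.7), and these intervals overlapped. Another draw of the thinning turned the order, with 21.9% in WT and 25.6% in DKO-severe, so the shares give no direction. Without thinning, the shares were 43.8% and 41.3%.

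*Ikzf4* was also read in subsets of the Foxp3-positive gate, which share cells, and differences between the subsets were not tested. In naive-marked cells (40 WT, 37 DKO-severe) it was at 104 and 78.6 CPM, and the interval of the log2 ratio of -0.41 reached from -1.23 to 0.41. In cells without a UMI of *Dscam*, *Penk* or *Hapln1* it was at 126 and 35.3 CPM (log2 -1.83, -2.55 to -1.14). DKO-severe cells with such a UMI had 55.1 CPM. Among DKO-severe cells, Tfh-marked ones had 45.6 CPM and naive-marked ones 78.6 CPM (log2 -0.79, -1.37 to -0.15), opposite in direction to *Ikzf2*, which was at 2677 and 1685 CPM (log2 0.67, 0.55 to 0.79). These Tfh-marked cells were deeper (median 13120 UMIs) than the naive-marked ones (8312), so depth could affect in which state a cell fell.

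In the Foxp3-negative gate *Ikzf4* was at 23.0 CPM (225 UMIs) in WT against 13.4 CPM (311 UMIs) in DKO-severe cells, a log2 ratio of -0.78 (-1.03 to -0.52). At equal depth 6.31% (5.01 to 7.82) of WT and 3.97% (3.13 to 4.96) of DKO-severe cells had a UMI. The log2 ratio was furthest from 0 in Tfh-marked cells, at 49.0 CPM (48 UMIs) in WT against 12.5 CPM (207 UMIs) in DKO-severe (log2 -1.97, -2.43 to -1.48). Cells of neither kind were at 34.9 and 17.1 CPM (log2 -1.03). Naive-marked cells were at 17.5 and 14.3 CPM, and their log2 ratio of -0.29 had an interval from -0.79 to 0.20. In WT, Tfh-marked cells exceeded naive-marked cells by 1.48 (0.97 to 1.97) on the log2 scale, while in DKO-severe cells that difference was -0.20 (-0.65 to 0.28). Without cells holding an *Il2ra* or *Lrrc32* UMI, chosen after the values were seen, the gate had *Ikzf4* at 16.2 and 7.96 CPM (log2 -1.02, -1.38 to -0.67). The part of missed Treg cells in the *Ikzf4* levels of the states was not tested.

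Eos was rarely detected in the other gates. Cd8 cells had *Ikzf4* at 4.57 CPM in WT against 4.12 CPM in DKO-severe, with a UMI in 1.57% and 1.60% at equal depth. Innate-like cells had 4 and 27 UMIs in all, and the log2 ratio of 0.94 had an interval from -0.58 to 2.92. B cells had 0 UMIs in WT, with 0 of 11 cells at equal depth and an exact interval up to 28.5%, and 1 UMI in DKO-severe, so no ratio was formed.

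**Figure D3:**
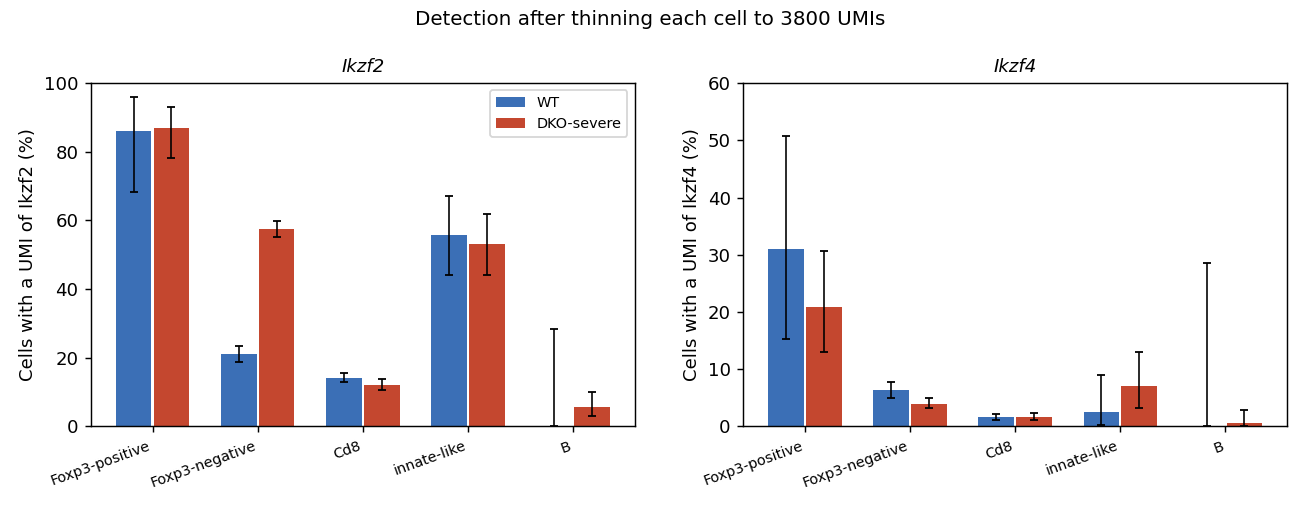
Share of cells with a UMI of *Ikzf2* (left) and *Ikzf4* (right) after each cell was thinned to 3800 UMIs, by gate, WT in blue and DKO-severe in red, with exact 95% binomial intervals. For *Ikzf2* the Foxp3-negative bars stand at 21.0% and 57.6%, while the Foxp3-positive bars overlap for each gene.

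Set against each other in the same cells, Helios was higher relative to Eos in the Cd4 gates of the DKO-severe mouse. In the Foxp3-positive gate there were 17.7 *Ikzf2* UMIs for each *Ikzf4* UMI in WT and 51.3 in DKO-severe. Each ratio is taken within the same cells, although depth still affects which cells enter the gate, and the difference of the log2 ratios was 1.54 (1.09 to 1.96), a 2.90-fold change. At equal depth it was 1.07, and with 2 or more *Foxp3* UMIs 0.46, from 15 *Ikzf4* UMIs in WT. In the latter setting both genes were lower in DKO-severe, with log2 ratios of -0.16 for *Ikzf2* and -0.62 for *Ikzf4*. In the Foxp3-negative gate the same difference was 2.10 (1.84 to 2.35), with 15.8 *Ikzf2* UMIs per *Ikzf4* UMI in WT and 67.4 in DKO-severe. In Cd8 cells it was 0.25 (-0.23 to 0.73), and in innate-like cells -0.19 (-2.18 to 1.35). The ratio of UMIs is not a ratio of transcripts, and only its change between the mice was compared.

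Cell by cell, most Foxp3-positive cells with *Ikzf4* at equal depth also had *Ikzf2*, 7 of 9 in WT and 17 of 19 in DKO-severe. These cells are too few to set apart from the whole gate, where 86.2% of WT and 86.8% of DKO-severe cells had *Ikzf2*. At equal depth 7 of 29 WT cells had both, 18 had *Ikzf2* alone, 2 had *Ikzf4* alone and 2 had neither. Of 91 DKO-severe cells, 17 had both, 62 *Ikzf2* alone, 2 *Ikzf4* alone and 10 neither. In the Foxp3-negative gate, cells with *Ikzf2* alone were 17.0% (14.9 to 19.2) of WT and 54.3% (52.0 to 56.6) of DKO-severe cells, while cells with both were 4.01% (2.98 to 5.27) and 3.28% (2.51 to 4.19). Cells with *Ikzf4* alone stood at 2.29% in WT and 0.698% in DKO-severe.

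**Figure D4:**
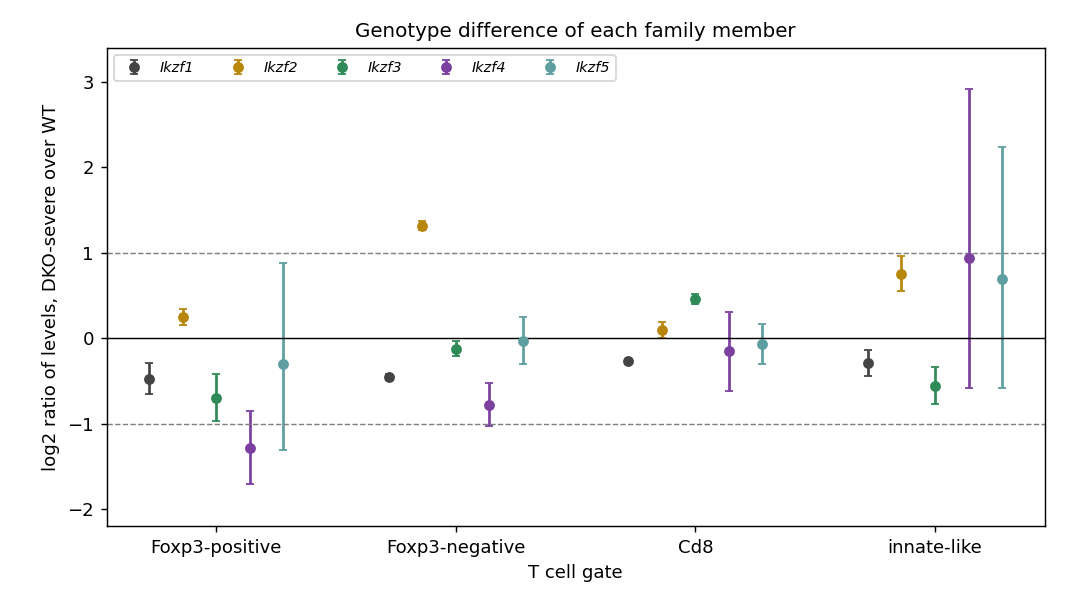
log2 ratio of the level in DKO-severe over WT for the 5 members in the 4 T cell gates, with exact 95% conditional intervals for counting error. Dashed lines mark 2-fold. *Ikzf2* in the Foxp3-negative gate lies above the upper line at 1.32 and *Ikzf4* in the Foxp3-positive gate below the lower one at -1.29, while *Ikzf1* is below 0 in each T cell gate.

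Ikaros was detected in most cells of every gate and was lower in every T cell gate of the DKO-severe mouse by less than 2-fold. In the Foxp3-negative gate *Ikzf1* was at 933 CPM in WT against 680 CPM in DKO-severe (log2 -0.46, -0.49 to -0.42). In the Foxp3-positive gate it was at 643 and 463 CPM (log2 -0.47, -0.65 to -0.29). The Cd8 gate had 903 and 749 CPM (log2 -0.27, -0.30 to -0.24), and the innate-like gate 843 and 688 CPM (log2 -0.29, -0.44 to -0.14). Foxp3-positive cells had the lowest T cell level in each mouse. In B cells the levels were 517 and 652 CPM, and the interval of the log2 ratio of 0.34 reached from -0.03 to 0.73.

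The lower *Ikzf1* was also seen within states. In Foxp3-negative cells the log2 ratio was -0.34 in Tfh-marked, -0.35 in naive-marked and -0.21 in other cells. In Cd8 cells it was -0.21 in effector-marked, -0.24 in naive-marked and -0.43 in other cells, and in Foxp3-positive naive-marked cells -0.59 (-0.90 to -0.28). At WT state shares the log2 ratio of the Foxp3-negative gate was -0.33. At equal depth 90.0% (88.2 to 91.6) of WT and 84.7% (83.0 to 86.4) of DKO-severe Foxp3-negative cells had a UMI, and in the Cd8 gate 91.4% and 91.3%. Positive Foxp3-negative cells held a mean of 3.84 UMIs in WT and 3.27 in DKO-severe at that depth. Over the alternatives the log2 ratio ranged from -0.60 to -0.32 in the Foxp3-negative, -0.78 to -0.38 in the Foxp3-positive and -0.28 to -0.23 in the Cd8 gate. In the innate-like gate it ranged from -0.39 to -0.08, the last at equal depth.

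Aiolos differed in opposite directions between T cell gates. In Cd8 cells *Ikzf3* was higher in DKO-severe, at 215 CPM (4509 UMIs) in WT against 296 CPM (4888 UMIs) in DKO-severe, for a log2 ratio of 0.46 (0.40 to 0.52). At equal depth 47.8% (46.0 to 49.6) and 58.0% (55.5 to 60.4) of Cd8 cells had a UMI. No member was past 2-fold in the Cd8 gate, where 2.58% of 5849 genes were. *Ikzf4* and *Ikzf5* were under the 20 CPM minimum for that share. In Foxp3-positive cells *Ikzf3* was lower, at 277 CPM (127 UMIs) in WT against 170 CPM (824 UMIs) in DKO-severe (log2 -0.70, -0.97 to -0.42). Naive-marked cells of this gate were at 279 against 297 CPM (log2 0.09, -0.36 to 0.54). In the whole gate 37.9% (20.7 to 57.7) and 28.6% (19.6 to 39.0) of cells had a UMI at equal depth. In Foxp3-negative cells it was at 152 and 139 CPM (log2 -0.12, -0.21 to -0.03).

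In the Cd8 gate the higher Aiolos went with effector-marked cells, which made up 3.61% of the gate in WT and 32.7% in DKO-severe. Effector-marked cells had *Ikzf3* at 313 CPM in WT against 425 CPM in DKO-severe (log2 0.44, 0.26 to 0.63), and naive-marked cells at 208 and 247 CPM (log2 0.25, 0.18 to 0.32). Effector-marked cells exceeded naive-marked cells by 0.59 (0.41 to 0.77) on the log2 scale in WT and by 0.78 (0.69 to 0.86) in DKO-severe. At WT state shares the log2 ratio of the gate was 0.25. Tfh-marked Foxp3-negative cells had *Ikzf3* at 189 CPM in WT against 129 CPM in DKO-severe (log2 -0.55, -0.77 to -0.33), so the direction was opposite to that in effector-marked Cd8 cells.

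*Ikzf3* was highest in the B gate in DKO-severe cells only. In DKO-severe cells the B gate was at 730 CPM, above the innate-like gate at 297 CPM and the Cd8 gate at 296 CPM, which overlapped. In WT the innate-like gate was at 436 CPM and the B gate at 392 CPM (47 UMIs in 15 cells), and the B gate overlapped with the innate-like gate and with Foxp3-positive cells at 277 CPM. The log2 ratio in B cells was 0.90 (0.48 to 1.35) over all UMIs but 0.01 at equal depth, and 0 of the 4 members with a ratio were past 2-fold beside 18.8% of 5877 genes. The WT B gate had monocyte or macrophage markers at a summed 3241 CPM against 261 CPM in DKO-severe, and their part in the ratio was not tested. Detection of *Ikzf3* at equal depth was 81.8% (9 of 11) and 81.3% (156 of 192). In innate-like cells the log2 ratio was -0.55 (-0.77 to -0.33), but it was 0.06 with gates and levels at equal depth, with detection at 70.1% and 71.1%. With gates on full counts and the same depth for detection, the shares were 75.9% in WT and 61.6% in DKO-severe, so the difference depended on which cells the gate took. No member was past 2-fold there, beside 8.27% of 6580 genes.

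Pegasus was low and did not differ beyond its intervals in any gate. *Ikzf5* was at 16.7 CPM in WT against 16.4 CPM in DKO-severe Foxp3-negative cells (log2 -0.03, -0.30 to 0.25), and at 16.7 and 15.9 CPM in Cd8 cells (log2 -0.07, -0.31 to 0.16). In Foxp3-positive cells it was at 19.6 CPM (9 UMIs) and 15.9 CPM (77 UMIs), with a log2 ratio of -0.30 and an interval from -1.30 to 0.88. The innate-like gate had 6 and 34 UMIs, and the B gate 3 and 27. Neighbouring gates in the order of its level overlapped in each mouse. In the Foxp3-negative and Cd8 gates these intervals leave out a 2-fold difference in either direction, and in the 3 smaller gates they do not.

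Genes that work with the family were past 2-fold about as rarely as other genes or less, by counts too small to set them apart. Of 14 corepressor partners (subunits of NuRD, SIN3 and CtBP complexes), 13 had enough counts in each T cell gate and 11 in B cells. In the Foxp3-positive gate 1 was past 2-fold upward, *Gatad2a*, a NuRD subunit named after its value was seen, at 61.0 CPM (28 UMIs) and 143 CPM (log2 1.23), beside 13.7% of all genes, and the list median was 0.23 beside 0.04 for all genes. The Foxp3-negative, Cd8 and innate-like gates had 0 past 2-fold, beside 11.2%, 2.58% and 8.27% of all genes, with medians of 0.23, -0.10 and -0.06 beside 0.10, -0.01 and -0.01 for all genes. The B gate had 1 upward, beside 18.8% of all genes in either direction, and a median of 0.27 beside 0.15. The cereblon ligase is the complex through which thalidomide analogs lead to the loss of Ikaros and Aiolos in human cells. Of its 4 genes, 0 were past 2-fold in any gate, with medians from -0.14 to 0.25.

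Treg genes of the Foxp3-positive gate went in both directions. Of the 10 listed, 8 had enough counts, 2 were past 2-fold upward and 3 downward, beside 13.7% of all genes in either direction, and the median was -0.41. Without *Foxp3*, on which the gate was set, the median of the other 7 was -0.06. The 5, named after their values were seen, were *Tigit* (log2 2.32, from 5 WT UMIs), *Tnfrsf18* (1.20), *Nrp1* (-1.07), *Il2ra* (-1.59) and *Lrrc32* (-4.12, from 38 and 23 UMIs). *Ikzf4* at -1.29 was between *Nrp1* and *Il2ra*, and *Ikzf2* at 0.25 was between the directions. In the Cd8 gate 0 of 3, in the innate-like gate 2 of 5 and in the B gate 1 of 3 measured Treg genes were past 2-fold, the last downward, beside 2.58%, 8.27% and 18.8% of all genes, with medians of 0.28, 0.74 and -0.27. Innate-like *Ctla4*, also named after its value was seen, met the minimum only through DKO-severe (17.6 against 161 CPM). Of the DKO-severe innate-like cells, 84 were also in the Foxp3-negative gate.

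Over the 10 combinations of gate and genotype, the gene most like each member was named from 8359 genes by Pearson's r of log2(CPM + 5), as a description. The combinations share libraries, and the innate-like and Foxp3-negative gates share cells. For *Ikzf2* these were *Nr4a3*, a nuclear receptor induced by T cell receptor signals (r = 0.98), *Dap3* (0.98) and *Galm* (0.98). For *Ikzf4* they were *Gm3739* (0.97), *Ttn* (0.97) and *Kif3b* (0.94). *Ikzf1* was closest to *Commd8* (0.93), *Stk4* (0.92) and *Rpl13a* (0.91), *Ikzf3* to *Lpp* (0.94), *Ppp3ca* (0.92) and *Fndc9* (0.91), and *Ikzf5* to *Arcn1* (0.95), *Cmc4* (0.94) and *Ubr3* (0.94). Among members, *Ikzf2* and *Ikzf4* had r = 0.89, since each was highest in Foxp3-positive and lowest in B cells, while *Ikzf2* and *Ikzf3* had -0.61.

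Markers of other cell types moved with genotype in the T cell gates. Summed over 6 genes each, granulocyte markers were at 70.6 to 85.2 CPM in WT and 1409 to 4068 CPM in DKO-severe T cell gates. Monocyte or macrophage markers were at 102 to 496 CPM in WT and 220 to 1338 CPM in DKO-severe, and B cell markers at 3.53 to 47.1 CPM and 27.2 to 97.4 CPM, with *Ms4a1* and *Pax5* at 0 UMIs in WT Foxp3-positive cells. The lowest B cell marker sum in each mouse was in the innate-like gate. That gate takes no cell with a *Cd79a* or *Ms4a1* UMI, so part of the low sum is fixed by the gate. Innate-like markers, which include *Zbtb16* on which the gate was set, were at 1219 CPM in WT against 874 CPM in DKO-severe innate-like cells. They were at 102 to 637 CPM in the other T cell gates, so part of this difference is fixed by the gate. Erythroid markers reached 3791 CPM in WT innate-like cells and were at 24.0 to 868 CPM in the others. T cell markers were at 2872 to 4726 CPM in the T cell gates, which need a *Cd3* UMI. They were at 75.0 and 48.3 CPM in the B gate, where *Cd3d*, *Cd3e* and *Cd3g* are at 0 by the gate. Without cells holding a UMI of *Cd79a*, *Ms4a1*, *Lyz2*, *S100a8* or *Csf1r*, the log2 ratio of *Ikzf2* was 1.35 in Foxp3-negative and 0.39 in Foxp3-positive cells, and that of *Ikzf4* was -0.82 and -1.17.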

How the data were processed

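TCRβ+ cells of both genotypes shared an mRNA and a hashtag library (10x Genomics 3′ v3.1). The authors deposited raw UMI counts per gene and hashtag, 1 matrix per genotype, from Cell Ranger 7.1.0 on mm10 per the file headers and the submitters' processing notes, which also name Seurat. Counting of intronic reads is not given in the sources used here. Hashtag 1 marked WT and Hashtag 2 DKO cells, and 0 value columns were unmatched.

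Barcodes under 500 detected genes or over 10% mitochondrial UMIs were dropped. Scrublet in scanpy 1.11.5 marked 0 barcodes by its own threshold, so the highest 6% of scores per matrix were removed. The median depth was then 5616 UMIs over 6583 WT cells and 8060 UMIs over 6359 DKO-severe cells. Counts were summed per gate and genotype and given as CPM. In log2 ratios, sums under 3 UMIs were counted as 3, with no ratio where both were at or under 3, and "past 2-fold" means an absolute log2 ratio of 1 or more. Shares were taken after thinning cells to 3800 UMIs (10.5% of WT and 7.50% of DKO-severe cells were shallower), with gates on the thinned counts. States with under 20 cells in a genotype have no level. With 1 mouse per genotype there was no test of genotypes.

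All 5 members are named, with the 3 genes most like each in level (100 or more UMIs over all gates, 20 or more CPM in at least 1 combination), genes that set a gate or state, and other genes only by list counts except where said. The members, gates, states and lists were chosen with earlier results of these data known. Protein sequences of the family were not analysed here. Some genes of the marker and state lists are not reported here. Alternatives covered doublets, cell filters, scaling, gates and depth. Python 3.11.15, numpy 2.4.6, scipy 1.17.1, pandas 2.3.3 and matplotlib 3.10.9 were used.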

Additional observations from a re-analysis of the deposited data

How the results depend on the processing

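The 24 log2 ratios of members in gates were recomputed 242 times in all under alternative settings, and 198 values stayed within the counting interval of the reported value. Of 250 recomputed shares of cells, 190 stayed within the interval and 60 did not. In the Foxp3-positive gate, *Ikzf2* (0.25 as reported) was 0.15 with a total that leaves out immunoglobulin, haemoglobin, mitochondrial and ribosomal protein genes, 0.41 without the need for a *Cd4* UMI, 0.39 without cells holding B cell or myeloid UMIs, and -0.16 with 2 or more *Foxp3* UMIs. The last setting also gave -0.78 for *Ikzf1*, -0.62 for *Ikzf4* and 0.46 for *Ikzf2* against *Ikzf4*. Equal depth gave -0.83 for *Ikzf4* and 1.07 for the pair. *Ikzf2* in the Foxp3-negative gate ranged from 0.44 at WT state shares to 1.71 without *Il2ra* or *Lrrc32* UMIs, and was past 2-fold in each setting but the first. *Ikzf2* in Cd8 cells ranged from -0.11 to 0.37, *Ikzf2* in innate-like cells from -0.22 to 1.05 and *Ikzf3* in innate-like cells from -0.61 to 0.06, so their signs depended on the setting, and the cause was not tested. With no CPM minimum but 10 or more UMIs, the share of all genes past 2-fold was 23.8% in the Foxp3-positive, 26.4% in the Foxp3-negative, 13.1% in the Cd8, 13.8% in the innate-like and 29.4% in the B gate, and a minimum of 50 CPM gave 5.50% in the innate-like gate. The 64 WT Foxp3-positive and 15 WT B cells limit what depth can show there.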
